A study of Mus musculus with 12 samples.

Results

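Oxidative phosphorylation genes were selected by symbol from an RNA-seq table of mammary tumors of MMTV-Neu mice, in which the mouse mammary tumor virus promoter drives the unactivated Neu gene in the mammary epithelium. All 12 tumors carried this transgene. The selection took the nuclear subunits of complexes I to V, the protein genes of the mitochondrial chromosome, and, because their symbols begin in the same way, assembly factors and regulators named Ndufaf, Cox7a2l and Atp5s. The selection held 107 of 54532 genes listed (22046 of them protein-coding), with 84 nuclear subunits, 13 mitochondrial genes and 10 assembly factors. For 10 days the mice ate powdered chow with the vehicle alone (control), with MSU-42011 or with bexarotene, each drug at 100 mg per kg of chow. There were 4 tumors in each group, and p-values measure the spread between these tumors. MSU-42011 and bexarotene are both agonists of the retinoid X receptor (RXR), a nuclear receptor. The age of the mice was not given in the sources used here.

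Oxidative phosphorylation (OXPHOS) takes place in the inner mitochondrial membrane. Complexes I and II pass electrons from NADH and succinate to ubiquinone, complex III passes them on to cytochrome c, and complex IV passes them to oxygen. Complexes I, III and IV pump protons out of the matrix, and complex V, the ATP synthase, makes ATP as the protons return. Complexes I, III, IV and V are built from subunits of both genomes, while complex II is encoded in the nucleus alone. In mammary tumors, as in other growing tissues, this system supplies ATP and also removes the electrons produced when biosynthetic precursors are made.

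Total counts on genes ran from 16583413 to 25925027 in the 12 libraries. At this depth 3 counts, used as the floor, corresponded to 0.116 to 0.181 CPM (counts scaled to the size of the library). This floor covers counting error only. The epithelial markers Epcam and Krt8 were high in every tumor, at 1353 to 2533 and 485 to 1225 normalized CPM. Of the list of 10 epithelial markers, 1 was at 0 in control replicate 4 and 1 in MSU-42011 replicate 3. Bexarotene replicate 1 stood apart from the other tumors. Its median correlation with the others over genes was 0.915, against at least 0.961 for the other 11 tumors. There the summed level of 10 fibroblast markers was 11484 normalized CPM against 111.5 to 941.4 elsewhere, and that of 10 macrophage markers was 2384 against 290.4 to 850.6. The 10 epithelial markers summed to 3513 there and to between 5233 and 7069 elsewhere. The 12 skeletal muscle markers summed to 344.2 in this tumor and to 174.0 in control replicate 1, against 3.46 to 15.8 in the other 10 tumors. The part of these other cells in the results that follow was not tested, and in bulk tumors fewer cells of a type cannot be told apart from less RNA per cell.

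The mitochondrial genes fell into a high and a low set by level. FPKM (fragments per kilobase of gene, scaled to the size of the library) was used to set levels of different genes side by side. It rests on a length for each gene that is not given in the sources used here. For some nuclear genes FPKM did not follow the gene length listed with the counts, so the order of nuclear genes by FPKM is approximate. Mean FPKM was 6382 for mt-Co1, the catalytic subunit of complex IV, 4358 for mt-Cytb, the cytochrome b of complex III, and 3257 for mt-Nd1 of complex I. It was 1526 for mt-Nd2, 1456 for mt-Nd4, 1227 for mt-Nd6 and 988.1 for mt-Nd5, all of complex I. The other 6 genes, although transcribed from the same chromosome, had mean FPKM values of 34.7 (mt-Co3), 33.2 (mt-Atp6), 31.1 (mt-Co2), 7.81 (mt-Nd4l), 4.49 (mt-Nd3) and 2.12 (mt-Atp8). The 7 high genes held between 99.4% and 99.8% of all counts of the 13 genes in each tumor.

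Of the 6 low genes, 5 had a nearly complete copy among the annotated transcripts of the nuclear genome. These copies are annotated as unprocessed pseudogenes in a block on chromosome 1 (GRCm38, chr1:24611535-24616197). In GENCODE M21 the first 681 of 684 bases of mt-Co2 recur in Gm28661, the first 678 of 681 bases of mt-Atp6 in Gm10925, and the first 783 of 784 bases of mt-Co3 in Gm28437, each without a mismatch. The copy of mt-Nd3, Gm28438, differed from it at 1 of 345 aligned bases, and that of mt-Nd4l, Gm10222, at 0 of 294. Of the high genes, 2 shared only a part, namely the last 479 of 1545 bases of mt-Co1 (with Gm29216) and the first 876 of 1378 bases of mt-Nd4 (with Gm28439). No 100-base window of mt-Atp8 recurred in another annotated transcript, and its end overlaps the start of mt-Atp6 on the same strand. mt-Atp8 lies between mt-Co2 and mt-Atp6 on the mitochondrial chromosome. The bases between the copies of these 2 genes, from 24614651 to 24614885 on chromosome 1, were not searched. A copy of mt-Atp8 there was therefore not looked for, and its level is uncertain too. The whole of mt-Nd4l, and the 80 bases in which the shared stretch of mt-Co1 begins and that of mt-Nd4 ends, are printed here in the transcribed direction to show how complete the copies are. Capitals mark bases that recur in the chromosome 1 copy.
mt-Nd4l, chrMT:9877-10173, strand +: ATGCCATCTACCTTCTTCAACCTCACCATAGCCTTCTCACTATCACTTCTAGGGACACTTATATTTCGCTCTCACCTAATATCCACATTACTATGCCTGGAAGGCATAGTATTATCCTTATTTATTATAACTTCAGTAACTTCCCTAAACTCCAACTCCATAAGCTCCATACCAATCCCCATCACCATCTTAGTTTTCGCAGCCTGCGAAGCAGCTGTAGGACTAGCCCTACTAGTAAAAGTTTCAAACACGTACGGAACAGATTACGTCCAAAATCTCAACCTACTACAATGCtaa
mt-Co1, chrMT:6354-6433, strand +: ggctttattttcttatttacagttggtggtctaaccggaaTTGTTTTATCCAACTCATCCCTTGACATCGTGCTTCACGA
mt-Nd4, chrMT:11002-11081, strand +: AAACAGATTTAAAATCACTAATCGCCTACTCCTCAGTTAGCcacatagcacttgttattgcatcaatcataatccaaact

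Reads from such stretches match both places equally well. How the authors counted reads with several matches is not given in the sources used here, so the levels of mt-Co2, mt-Atp6, mt-Co3, mt-Nd3 and mt-Nd4l are uncertain. The levels of mt-Nd4 and mt-Co1, and shares computed from them, are uncertain in part. Of their 100-base windows, 60.8% and 30.8% recur in transcripts of other genes. The chromosome 1 copies held between 903 counts (Gm10222) and 6151 counts (Gm28661) over the 12 tumors. The corresponding mitochondrial genes held 561 (mt-Nd4l) and 5079 (mt-Co2), against 2415085 for mt-Co1. The low values of these genes are therefore given as listed in the table and not as levels of the RNA.

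**Figure D1:**
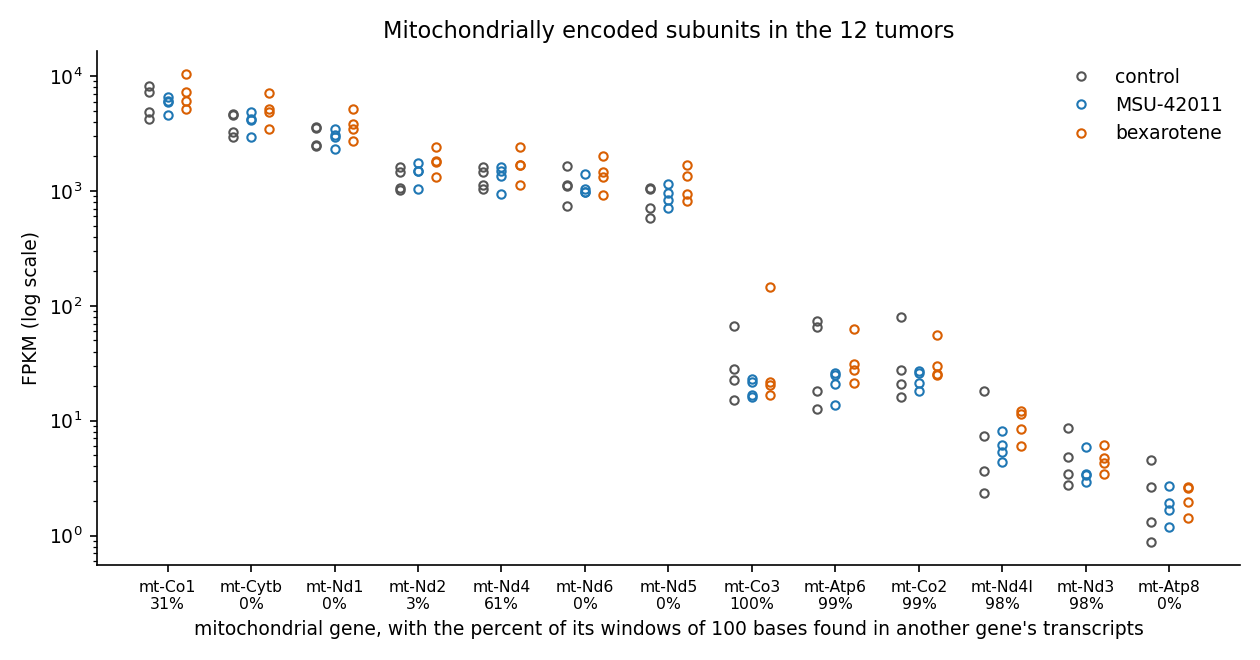
FPKM of the 13 mitochondrial genes on a log axis, with 1 open circle per tumor and a color per diet group; the number under each gene is the percent of its windows of 100 bases that also occur in transcripts of another gene. In all, 7 genes have means of 988.1 FPKM or more, and the 5 genes with 97.6% or more shared windows, together with mt-Atp8, sit far lower.

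mt-Nd6 lies on the other strand and overlaps the end of mt-Nd5, and the strand setting of the counting is not given in the sources used here, so reads in their overlap cannot be told apart.

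The share of counts on the 13 mitochondrial genes varied widely between tumors of the same group. It was 2.68%, 1.62%, 1.81% and 2.77% in control replicates 1 to 4. It was 2.26%, 2.49%, 1.69% and 2.36% in the MSU-42011 group and 2.78%, 3.93%, 1.94% and 2.54% in the bexarotene group. The means were 2.22% ± 0.590 (SD, n = 4), 2.20% ± 0.355 and 2.80% ± 0.833, and all 3 groups overlapped. The highest share was that of bexarotene replicate 2. For each count on a nuclear subunit there were between 1.38 (control replicate 3) and 3.05 (bexarotene replicate 2) counts on mitochondrial genes.

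Of the mitochondrial counts, mt-Co1 took 36.8% to 46.1% in the 12 tumors, mt-Cytb 19.4% to 23.4% and mt-Nd1 12.3% to 14.5%. The shares of the copied genes varied more, in proportion to their size, with 0.0647% to 0.204% for mt-Co2, 0.0531% to 0.181% for mt-Atp6 and 0.0575% to 0.293% for mt-Co3. mt-Nd2 took 6.11% ± 0.454 in control tumors, 6.77% ± 0.423 with MSU-42011 and 6.90% ± 0.462 with bexarotene (SD, n = 4 each), with overlapping groups.

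mt-Co1 had 11523, 6810, 7426 and 13323 normalized CPM in the control tumors, 9159, 9216, 6779 and 9858 with MSU-42011, and 10760, 15969, 7727 and 10053 with bexarotene. Control replicates 1 and 4 and bexarotene replicate 2 were the highest, and the groups overlapped. The log2 fold change against control was -0.16 ± 0.28 (SE) for MSU-42011 and 0.19 ± 0.28 for bexarotene in edgeR's quasi-likelihood test, with adjusted p-values of 1.00 and 0.945. mt-Nd2, a membrane subunit of complex I, had 1726, 1112, 1094 and 1589 normalized CPM in control tumors, 1511, 1841, 1030 and 1519 with MSU-42011, and 1791, 2496, 1328 and 2023 with bexarotene. Of the 4 bexarotene tumors, 3 lay above all 4 control tumors, and bexarotene replicate 3 lay among them. This gene had the smallest p of the 13 in the comparison of bexarotene with control, with a log2 fold change of 0.47 ± 0.24, an edgeR p of 0.072 and an adjusted p of 0.807. mt-Nd5, another membrane subunit, followed with 0.45 ± 0.27 (adjusted p = 0.858 by edgeR). Without bexarotene replicate 2 the log2 fold changes were 0.31 and 0.24.

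The 7 high mitochondrial genes were all above control in the bexarotene group, with log2 fold changes of 0.19 to 0.47 and a median of 0.35. These genes are transcribed from 1 chromosome, so they are not independent of each other. Their median was 0.16 without bexarotene replicate 2, with 6 of 7 above control. With MSU-42011 the median of these 7 genes was -0.02, with 3 above and 4 below control, and it was 0.12 without MSU-42011 replicate 3, 0.09 without control replicate 1 and 0.05 without control replicate 4. Their log2 fold changes for MSU-42011 against bexarotene lay between -0.40 and -0.35, with a median of -0.38 that was -0.19 without bexarotene replicate 2 and -0.24 without MSU-42011 replicate 3.

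Of the 5 copied genes, mt-Co2, mt-Atp6 and mt-Co3 were high in 1 to 3 tumors. mt-Co2 had 56.0 normalized CPM in control replicate 1 and 11.4 to 37.7 in the other 11 tumors. mt-Atp6 had 45.5 and 52.3 in control replicates 1 and 4, 42.8 in bexarotene replicate 2 and 8.88 to 20.4 in the rest. mt-Co3 had 114.7 in bexarotene replicate 2 and 53.9 in control replicate 1, against 11.8 to 23.3 elsewhere. Control replicate 1 was also the tumor with the most counts on Gm28661 (1304, against 243 to 700). Of the 13 genes, mt-Atp6 had the smallest p in the comparison of MSU-42011 with control (log2 fold change -1.06 ± 0.53, adjusted p = 1.00 by edgeR) and mt-Co3 in that of MSU-42011 with bexarotene (-1.43 ± 0.68, adjusted p = 0.997 by edgeR). Without bexarotene replicate 2 the latter was -0.04.

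By FPKM, the median levels of the nuclear subunits differed between the complexes. Among genes with a mean of at least 1 FPKM, the median level was 114.5 FPKM for complex I (36 genes), 103.1 for complex II (4), 224.7 for complex III (8), 265.0 for complex IV (16) and 258.2 for complex V (16). The 10 assembly factors had a median of 14.5 FPKM. Of each complex the nuclear subunit with the highest FPKM was Ndufa7 (203.2 FPKM, an accessory subunit of complex I), Sdha (238.0, the flavoprotein of succinate dehydrogenase), Uqcrh (325.5, the hinge protein of complex III), Cox4i1 (962.5, the common form of COX4) and Atp5b (1099, the catalytic beta subunit of the ATP synthase). Sdha had 44292 counts and a listed length of 4126 bases, and Sdhc had 39294 counts and 3250 bases. Their FPKM values of 238.0 and 114.2 do not follow these lengths, so the order within a complex is uncertain. The lowest nuclear subunit of complex I was Ndufs5 at 10.1 FPKM. Reads on several nuclear subunits may be split or shared, among them Atp5l, Atp5h, Ndufb4, Ndufs5 and Cox4i1. Of the 100-base windows of the first 4, 69.0%, 29.5%, 33.4% and 19.8% recur in transcripts of other genes, and Cox4i1 overlaps Emc8 on the other strand. The low value of Ndufs5 is therefore uncertain as a level of its RNA.

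**Figure D2:**
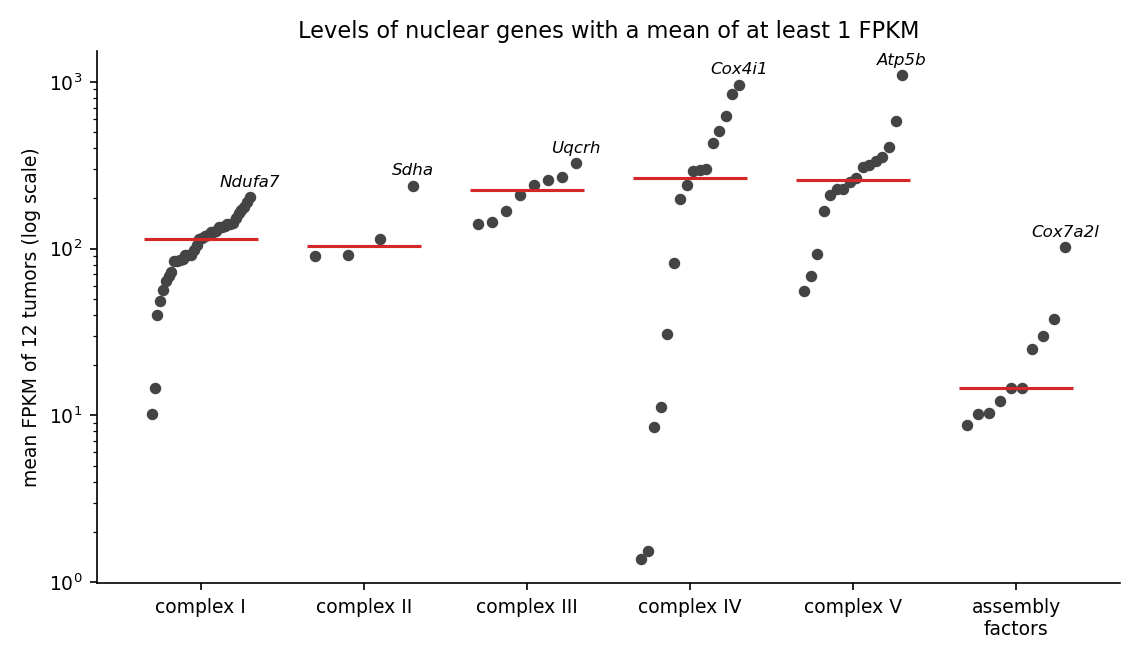
Mean FPKM over the 12 tumors of each nuclear subunit and assembly factor with at least 1 FPKM, on a log axis and ordered by level within each class; red lines are medians and the highest gene of each class is named. Median levels of complexes III, IV and V lie between 224.7 and 265.0 FPKM, above the 114.5 of complex I and the 14.5 of the assembly factors.

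Nuclear respiratory factor 1 (NRF1) and GABPA (also called NRF2 alpha) are transcription factors known for binding promoters of nuclear OXPHOS genes. The promoters of the nuclear genes were searched for the letters GCATGCGC (NRF1) and CCGGAAGT (GABPA) on both strands. Promoters (250 bases before to 50 after the start, RefSeq, GRCm38.p6) were found for 74 of 93 nuclear symbols. The NRF1 letters occurred in 10 of 66 subunit promoters (15.15%) and in 824 of all 27025 (3.05%). The GABPA letters occurred in 5 of 66 (7.58%) and in 1164 of 27025 (4.31%). The 27025 were not limited to genes expressed in these tumors. The promoters of Uqcr11, Atp5k and Cox6a1, subunits of complexes III, V and IV, are shown with the matched letters in capitals. The within-group SDs of these genes were 0.41, 0.42 and 0.30 (log2). In Atp5k and Cox6a1 the NRF1 letters occur on both strands and overlap, which gives 1 longer run of capitals. A match describes these letters only and does not show binding, and its part in the variation between tumors was not tested.
Uqcr11, chr10:80406772-80407071, strand -: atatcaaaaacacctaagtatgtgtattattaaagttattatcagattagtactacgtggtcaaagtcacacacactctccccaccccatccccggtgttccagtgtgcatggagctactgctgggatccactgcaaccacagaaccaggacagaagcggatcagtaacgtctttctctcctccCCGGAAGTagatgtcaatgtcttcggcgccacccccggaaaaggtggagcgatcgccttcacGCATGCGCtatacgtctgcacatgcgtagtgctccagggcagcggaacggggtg
Atp5k, chr5:108434350-108434649, strand -: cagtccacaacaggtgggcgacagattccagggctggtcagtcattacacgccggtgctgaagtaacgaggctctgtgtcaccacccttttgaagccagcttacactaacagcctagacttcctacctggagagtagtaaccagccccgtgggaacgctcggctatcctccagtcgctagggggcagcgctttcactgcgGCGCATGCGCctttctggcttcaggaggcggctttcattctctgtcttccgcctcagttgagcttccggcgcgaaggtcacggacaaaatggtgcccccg
Cox6a1, chr5:115348909-115349208, strand -: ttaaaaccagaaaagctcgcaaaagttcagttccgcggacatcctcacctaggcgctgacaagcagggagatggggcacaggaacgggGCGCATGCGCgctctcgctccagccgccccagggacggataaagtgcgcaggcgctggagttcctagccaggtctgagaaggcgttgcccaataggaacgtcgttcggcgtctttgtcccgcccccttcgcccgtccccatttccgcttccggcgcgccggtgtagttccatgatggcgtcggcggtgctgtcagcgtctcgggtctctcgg

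The nuclear subunits varied together from tumor to tumor, and the 3 diet groups overlapped in this pattern. Each tumor was scored by the median, over the 80 nuclear subunits tested, of the log2 difference of normalized CPM from the mean of the control tumors. This median was -0.04, -0.19, 0.06 and 0.17 in control replicates 1 to 4. It was -0.11, 0.25, -0.36 and -0.08 with MSU-42011 and -0.37, 0.19, -0.07 and 0.35 with bexarotene. The lowest and the highest of the 12 tumors were thus both in the bexarotene group. Over all 15504 genes tested the same median lay between -0.01 and 0.03 in every tumor.

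Nearly the whole set moved in such tumors. In control replicate 4, 79 of 80 nuclear subunits lay above their mean over the 12 tumors, as did 76 in MSU-42011 replicate 2 and 72 in bexarotene replicate 4. In bexarotene replicate 1 only 3 of 80 did, in MSU-42011 replicate 3 only 4 and in control replicate 2 only 7. For all genes tested this share was between 47.0% and 52.1%. When the median of the nuclear subunits in each tumor was taken off, the median SD of a nuclear subunit within a group went from 0.29 to 0.13 (log2). For the 13 mitochondrial genes, with the same median of the nuclear subunits taken off, it went from 0.41 to 0.39. For the 7 high ones it went from 0.38 to 0.31. The median of the mitochondrial genes themselves was not taken off, so these values are not on equal terms with those of the nuclear subunits. For the nuclear subunits the median came from the same 80 genes, so part of their fall follows from the calculation.

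Complexes I, III, IV and V shared this pattern, while complex II followed it in some tumors only. In control replicate 4 all 4 genes of complex II lay above their mean over all tumors (median 0.09). In bexarotene replicate 1, 0 of 4 did (median -0.24). The medians of complex II in control replicates 2 and 3, -0.11 and 0.10, also had the signs of the other complexes. Complex V was itself split in bexarotene replicates 2 and 3, with 9 and 8 of 16 genes above their mean. Complex II stood apart in other tumors. In MSU-42011 replicate 3 the medians of complexes I, III, IV and V were -0.37, -0.36, -0.31 and -0.35, and that of complex II was -0.16. In bexarotene replicate 4 they were 0.35, 0.23, 0.41 and 0.32, against 0.04 for complex II. In bexarotene replicate 2 complex II lay at -0.17 while complexes I, III, IV and V lay at 0.21, 0.06, 0.23 and 0.12. In bexarotene replicates 2 and 4 Sdhb and Sdhc were above and Sdha and Sdhd below the mean of the control tumors. The mitochondrial genes went another way than the nuclear subunits in several tumors. In bexarotene replicate 1 the median of the 7 high mitochondrial genes was 0.26 while that of the nuclear subunits was -0.37, and in control replicate 3 these values were -0.28 and 0.06. Bexarotene replicate 1, the lowest tumor for nuclear subunits, is the tumor with the high fibroblast and macrophage markers. In MSU-42011 replicate 3, the second lowest, the fibroblast markers summed to 541.2 normalized CPM, and in control replicate 2, the third lowest, to 111.5, which was the lowest of all. Their part in the pattern was not tested.

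**Figure D3:**
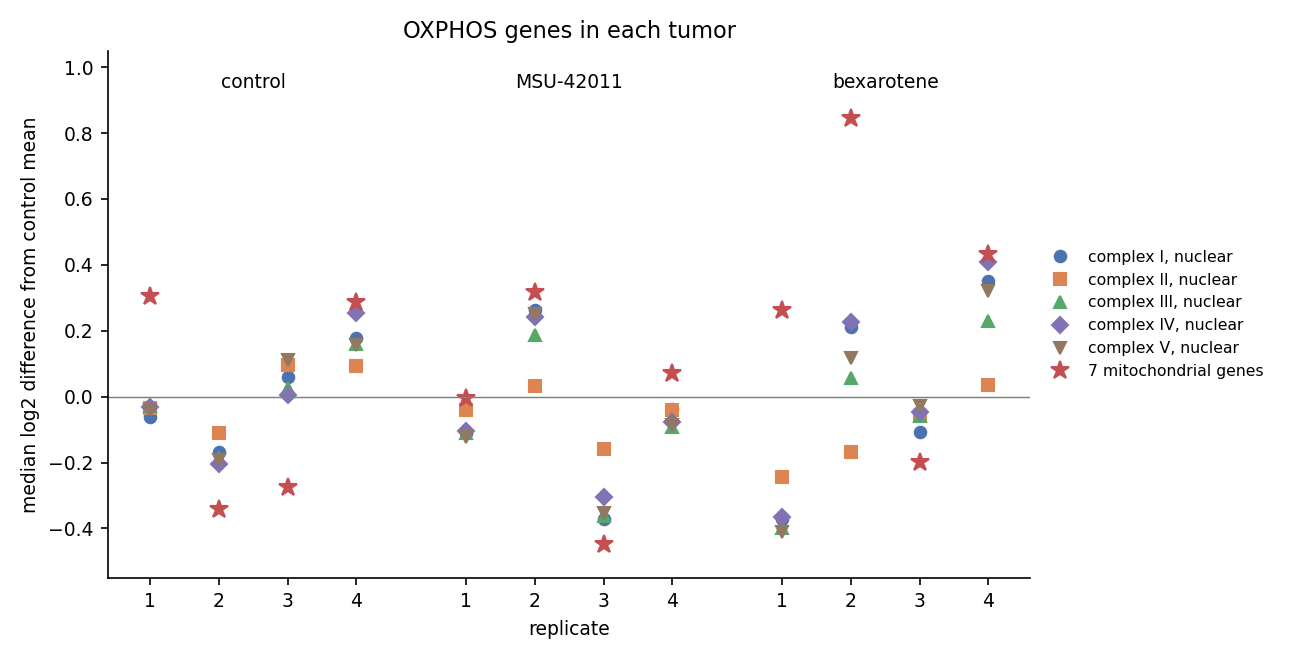
Median log2 difference from the control mean of nuclear subunits by complex and of the 7 high mitochondrial genes (stars), for each of the 12 tumors ordered by diet group and replicate. Symbols of complexes I, III, IV and V range from -0.41 (complex V) in bexarotene replicate 1 to 0.41 (complex IV) in bexarotene replicate 4, and lie nearer to each other than to complex II in MSU-42011 replicate 3 and bexarotene replicates 2 and 4, while the stars reach 0.85 in bexarotene replicate 2.

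The comparison of the diets asked whether the RXR agonists changed OXPHOS transcripts in these tumors. Of the 107 genes, 103 passed the filter on low counts, and the other 4 were Cox7b2, Cox8c, Cox6a2 and a further identifier of Atp5o with 0 counts. No OXPHOS gene passed an adjusted p of 0.05 among the 3 groups or in any comparison of 2 groups in edgeR, and none did with DESeq2 or with limma on FPKM. Among all 15504 genes edgeR called 0.0% in each comparison as well. At an unadjusted p under 0.05, edgeR found 1 of 103 OXPHOS genes for MSU-42011 against control, where 1.99% of all genes lay under it. It found 2 for bexarotene against control (6.44% of all genes), 1 for MSU-42011 against bexarotene (3.95%) and 1 among the 3 groups (4.24%). The shares of OXPHOS genes were thus under those of all genes in edgeR. In the same order DESeq2 found 2, 2, 2 and 1 of 105 OXPHOS genes, where 1.59%, 4.70%, 3.13% and 3.53% of all genes lay under the threshold, so that its share for MSU-42011 against control (1.90%) was slightly above that of all genes. With limma on log2(FPKM + 1) there were 1, 0, 1 and 0 of 103, against 2.31%, 3.61%, 2.01% and 1.999% of all genes. At an adjusted p of 0.05 DESeq2 called 1, 6, 25 and 5 of all genes it tested, and limma called 0.

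The nuclear subunits lay slightly below control with MSU-42011, with a median log2 fold change of -0.06 and 19 of 80 above control. With bexarotene the median was 0.05 and 51 of 80 lay above control. The medians of all genes tested were 0.00 and 0.03, with 50.3% and 55.3% of them above control. For MSU-42011 against bexarotene the median was -0.09 for the nuclear subunits (14 of 80 above), and that of all genes -0.02 (45.1% above). The score of a tumor had an SD of 0.15 in the control, 0.25 in the MSU-42011 and 0.31 in the bexarotene group, so these medians were smaller than the spread between tumors. Each of them changed sign when 1 tumor was left out. Against control, the median for MSU-42011 was 0.03 without MSU-42011 replicate 3. That for bexarotene was -0.08 without bexarotene replicate 4, -0.03 when its replicate 2 was dropped and -0.02 when control replicate 2 was. For MSU-42011 against bexarotene it was 0.03 without bexarotene replicate 4 and 0.01 without MSU-42011 replicate 3. Leaving out bexarotene replicate 1 gave 0.16 (bexarotene against control) and -0.22 (MSU-42011 against bexarotene).

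The 13 mitochondrial genes had medians of -0.16 for MSU-42011 against control (3 above), 0.27 for bexarotene against control (9 above) and -0.39 for MSU-42011 against bexarotene (0 above). The SD of a tumor's score over them was 0.47 in the control group, 0.30 with MSU-42011 and 0.43 with bexarotene, so the medians again lay within about 1 SD. Without control replicate 1 the first of these was 0.08, and without bexarotene replicate 2 the second was 0.06 and the third -0.19. The 10 assembly factors had medians of 0.04, 0.12 and -0.03.

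**Figure D4:**
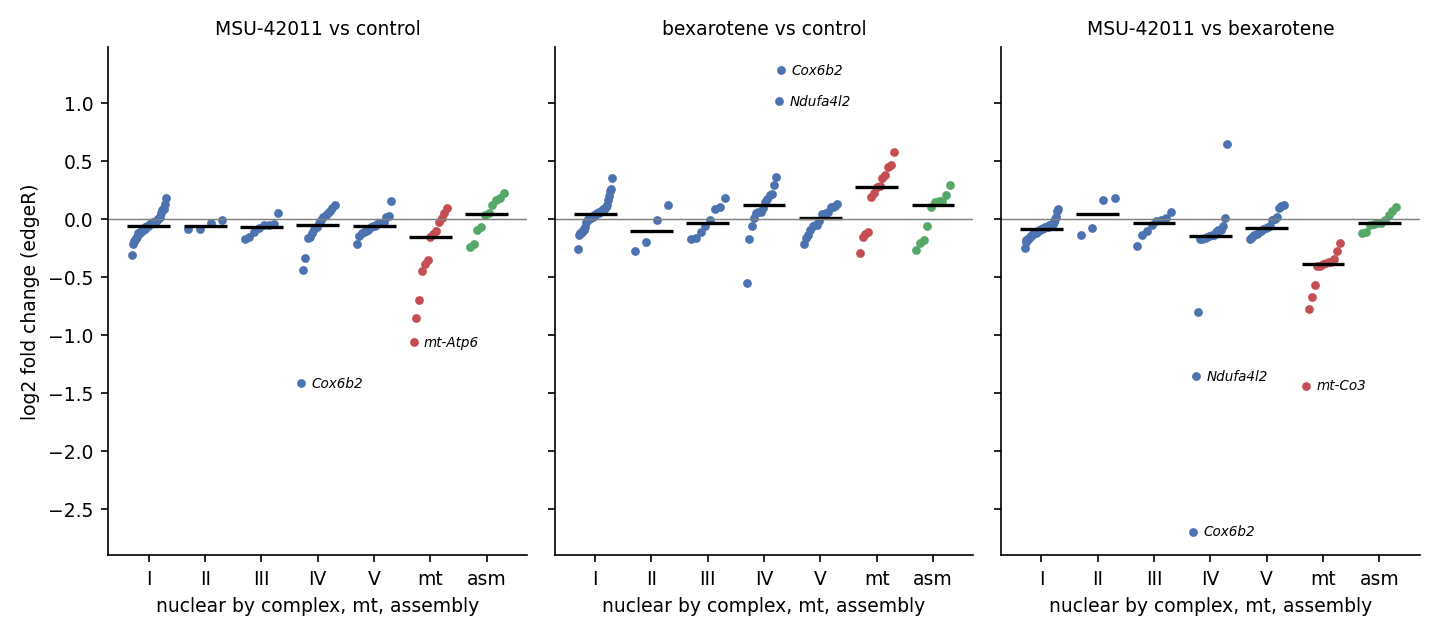
Log2 fold changes (edgeR) of the 103 tested OXPHOS genes in the 3 comparisons, with 1 point per gene, nuclear subunits by complex in blue, mitochondrial genes (mt) in red and assembly factors (asm) in green; black lines are medians and genes past 0.9 in either direction are named. The points of complexes I, II, III and V stay between -0.31 and 0.36 and the spread is widest in complex IV, from -2.70 (Cox6b2) to 0.65 (Cox8b) for MSU-42011 against bexarotene.

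By complex, the median log2 fold changes for MSU-42011 against control were -0.06, -0.06, -0.06, -0.05 and -0.06 for complexes I to V. Without MSU-42011 replicate 3 they were 0.05, -0.02, 0.01, 0.03 and 0.02. With bexarotene the medians of the 5 complexes were 0.04, -0.11, -0.03, 0.12 and 0.01 relative to control. Without bexarotene replicate 4 they were -0.07, -0.16, -0.12, -0.02 and -0.09, and without bexarotene replicate 1 they were 0.16, -0.06, 0.08, 0.21 and 0.14. Signs also changed without bexarotene replicate 2 (complexes I and V), control replicate 1 (V), control replicate 2 (I and V) and control replicates 3 and 4 (III), and for MSU-42011 without control replicate 4 (I, IV and V). Complex II alone stayed below control in both comparisons whichever single tumor was left out. Of the 80 nuclear subunits, 76, 75 and 76 stayed within 0.3 of 0 (log2) for MSU-42011 and bexarotene, each against control, and for the agonists against each other. Apart from Ndufb11 and Ndufs5, those outside were the low-abundance complex IV genes Cox4i2, Cox6b2, Cox8b and Ndufa4l2. In complex I, 0 of 7 nuclear core subunits and 9 of 29 accessory subunits were above control with MSU-42011, and 3 of 7 and 23 of 29 with bexarotene. These counts rested on single tumors. For MSU-42011 they were 3 of 7 and 21 of 29 without its replicate 3, 2 of 7 and 17 of 29 without control replicate 4, and 0 of 7 and 1 of 29 without its replicate 2. For bexarotene they were 0 of 7 and 5 of 29 without its replicate 4, 0 of 7 and 13 of 29 without its replicate 2, and 1 of 7 and 14 of 29 without control replicate 2. The core subunits carry the flavin and the iron-sulfur clusters. None of these subunits had an unadjusted p under 0.05 in edgeR.

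Ndufa7 had 191.2 ± 15.3 FPKM in control tumors, 207.3 ± 26.8 with MSU-42011 and 211.2 ± 36.8 with bexarotene (SD, n = 4 each). Uqcrh had 343.2 ± 31.6, 320.8 ± 21.1 and 312.5 ± 44.8 FPKM, and Cox4i1 had 990.1 ± 67.6, 927.2 ± 35.3 and 970.1 ± 195. Atp5b had 1127 ± 255, 1138 ± 77.4 and 1031 ± 177 FPKM. For these 4 genes the difference of each agonist from control was smaller than the spread between tumors of at least 1 of the groups, and their adjusted p-values (edgeR) were between 0.896 and 1.00.

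Complex II was the one complex with a subunit under an unadjusted p of 0.05 in edgeR for bexarotene against control. Sdha (chr13:74322254-74350280, strand -) had 188.0, 190.7, 216.2 and 200.9 normalized CPM in control tumors, 186.5, 190.4, 195.3 and 176.2 with MSU-42011, and 169.9, 128.0, 199.5 and 161.7 with bexarotene. Of the bexarotene tumors, 3 lay below all control tumors and bexarotene replicate 3 lay among them. The log2 fold change for bexarotene against control was -0.27 ± 0.12 (edgeR p = 0.046, adjusted p = 0.770), and the two-sided exact permutation test gave p = 0.0857. Leaving out single tumors gave values from -0.38 (without bexarotene replicate 3) to -0.17 (without bexarotene replicate 2). Sdhd, a membrane anchor of the same complex, had 109.2, 105.7, 128.9 and 123.8 normalized CPM in control tumors, 123.2, 105.4, 118.0 and 110.2 with MSU-42011 and 103.4, 86.1, 111.8 and 105.7 with bexarotene. The groups overlapped, and the log2 fold change for bexarotene against control was -0.20 ± 0.11 (edgeR adjusted p = 0.821). Sdhc and Sdhb, the other anchor and the iron-sulfur subunit, had log2 fold changes of -0.01 ± 0.13 and 0.12 ± 0.18.

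Cox7a2l, a protein that joins complexes III and IV into supercomplexes, and Ndufaf1, an assembly factor of complex I, were the 2 OXPHOS genes whose groups did not overlap in a comparison. Both were for MSU-42011 against control, where 1.97% of all genes did not overlap, so that 2 of 103 was near this background. For bexarotene against control, where 2.03% of all genes did not overlap, and for MSU-42011 against bexarotene, where 1.17% did not, there were 0 such OXPHOS genes. Cox7a2l (chr17:83501919-83514333, strand -) had 130.0, 122.6, 115.9 and 131.6 normalized CPM in control tumors, 104.5, 114.4, 114.8 and 96.7 with MSU-42011, and 108.7, 98.6, 109.1 and 117.5 with bexarotene. All 4 MSU-42011 tumors and 3 of 4 bexarotene tumors lay below the lowest control tumor, control replicate 3. The gap between control replicate 3 and the highest MSU-42011 tumor was narrow (115.9 against 114.8). The log2 fold change was -0.22 ± 0.09 for MSU-42011 (edgeR p = 0.035, adjusted p = 1.00, exact permutation p = 0.0286) and -0.21 ± 0.09 for bexarotene (edgeR p = 0.044, adjusted p = 0.769, exact permutation p = 0.0571). The value of 0.0286 is the smallest that 4 tumors against 4 can give. Both comparisons share the control tumors. Leaving out 1 tumor at a time gave edgeR p-values for MSU-42011 from 0.026 (without control replicate 3) to 0.107 (without MSU-42011 replicate 4), and the log2 fold change stayed between -0.25 and -0.17. Its SD within groups was among the lowest of the 103 genes, at 0.10 (log2), and in bexarotene replicates 1 and 4, the lowest and highest tumors for nuclear subunits, it was close, at 108.7 and 117.5 normalized CPM.

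Ndufaf1 (chr2:119655446-119662827, strand -) had 14.0, 11.98, 14.5 and 14.3 normalized CPM in control tumors, 14.7, 15.8, 15.3 and 18.2 with MSU-42011, and 13.2, 16.5, 13.7 and 17.7 with bexarotene. The lowest MSU-42011 tumor was just above the highest control tumor, at 14.7 against 14.5. The log2 fold change for MSU-42011 against control was 0.22 ± 0.14 (edgeR p = 0.144, adjusted p = 1.00, exact permutation p = 0.0286). Ndufaf5 and Ndufaf2, further assembly factors of complex I, had the next smallest p-values among OXPHOS genes above control, with 0.17 ± 0.21 and 0.18 ± 0.27.

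Several subunits of complex IV and the ATP synthase exist in forms from separate genes, and in these tumors the common forms prevailed. By FPKM, Cox4i1 held at least 99.6% of COX4, Cox6a1 at least 99.2% of COX6A, Cox6b1 at least 98.5% of COX6B and Cox8a at least 96.4% of COX8 in every tumor. In the COX7A family Cox7a2 held 64.8% to 73.8%, Cox7a2l 18.5% to 29.5% and Cox7a1, the form of heart and muscle, 3.57% to 10.1%. Of ATP synthase subunit c, which 3 genes encode for the same mature protein, Atp5g3 held 52.0% to 57.6%, Atp5g2 31.0% to 40.3% and Atp5g1 7.76% to 12.2%. Over the 12 tumors Atp5g3 had 75391 counts, Atp5g2 40830 and Atp5g1 44089. The small share of Atp5g1 thus depends on the length used for FPKM and does not show that it is a minor source. Shares of Atp5g1 were 8.82% ± 0.875 in control tumors, 9.05% ± 0.752 with MSU-42011 and 9.80% ± 1.97 with bexarotene (SD, n = 4 each), within the spread between tumors.

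Cox6b2, the testis form of COX6B, had the smallest p of the 103 genes. Cox6b2 (chr7:4751792-4753094, strand -) had 0.77, 0.81, 0.27 and 0.22 normalized CPM in control tumors, 0.17, 0.12, 0.11 and 0.34 with MSU-42011, and 2.66, 1.72, 0.44 and 0.12 with bexarotene. These values rest on 5 to 17 counts per control tumor, 2 to 8 per MSU-42011 tumor and 72, 36, 9 and 2 in the bexarotene tumors, with the floor at 3 counts. Bexarotene replicates 1 and 2 were the highest and bexarotene replicate 4 lay with the MSU-42011 tumors. The log2 fold change for MSU-42011 against bexarotene was -2.70 ± 0.84 (edgeR p = 0.0071, adjusted p = 0.997, exact permutation p = 0.0857). DESeq2 gave an adjusted p of 0.218 for it. Without bexarotene replicate 1 the log2 fold change was -1.995. Against control the values were -1.41 ± 0.86 for MSU-42011 and 1.28 ± 0.76 for bexarotene, the latter 0.59 without bexarotene replicate 1. Bexarotene replicates 1 and 2 were also the tumors with the highest sums of fibroblast markers (11484 and 941.4 normalized CPM); the part of other cells was not tested.

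Ndufa4l2, a homolog of the complex IV subunit NDUFA4 known as a target of hypoxia-inducible factor, was high in 1 tumor. It had 7.06, 3.03, 4.70 and 5.60 normalized CPM in control tumors, 4.95, 2.06, 4.98 and 4.11 with MSU-42011, and 29.6, 4.197, 3.63 and 3.68 with bexarotene. Bexarotene replicate 1 stood alone and the other 11 tumors overlapped. For MSU-42011 against bexarotene the log2 fold change was -1.35 ± 0.66 (edgeR adjusted p = 0.997), and it was 0.07 without bexarotene replicate 1. Its share of the NDUFA4 pair was 16.8% in that tumor and 0.967% to 3.58% in the others. Of the hypoxia response list, the median in that tumor was -0.25 (log2, relative to control). The medians of the fibroblast, skeletal muscle, macrophage and endothelial lists stood at 5.67, 3.53, 2.24 and 1.88. Those of the myoepithelium and smooth muscle, adipocyte and T cell lists were 1.80, 0.99 and 0.05. The brown adipocyte and epithelial lists were at -0.32 and -0.75. The part of hypoxia or of these cells in the Ndufa4l2 value was not tested. Ndufa4l2 overlaps Shmt2 on the other strand.

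Cox6a2, the heart and muscle form of COX6A, did not pass the filter. It had 31 counts in control replicate 1, 67 in bexarotene replicate 1 and 0 to 3 in the other 10 tumors. These are the same 2 tumors in which the skeletal muscle markers were high, with Acta1 at 60.4 and 95.2 normalized CPM against 0 to 0.95 elsewhere. Cox7a1 did not show this, with 9.43 and 8.89 normalized CPM in these tumors and 6.11 to 21.9 in the others. Cox8b, another muscle and brown fat form, had 13.03 normalized CPM in MSU-42011 replicate 2, 8.62 in control replicate 4 and 0.83 to 5.42 elsewhere. Its log2 fold change for MSU-42011 against bexarotene was 0.65 ± 0.73 (edgeR adjusted p = 0.997) and -0.61 without MSU-42011 replicate 2. Ucp1, the defining gene of brown fat, was at 0 to 0.24 normalized CPM in all tumors. The list of 8 brown adipocyte markers summed to 54.65 in MSU-42011 replicate 2, 51.1 in control replicate 4 and 53.95 in bexarotene replicate 3. Elsewhere it summed to between 25.6 and 39.2. The list medians (log2, relative to control) were 0.09, 0.27 and 0.59 in these tumors, and 0.34 in MSU-42011 replicate 1. The part of brown fat in the Cox8b values was not tested.

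**Figure D5:**
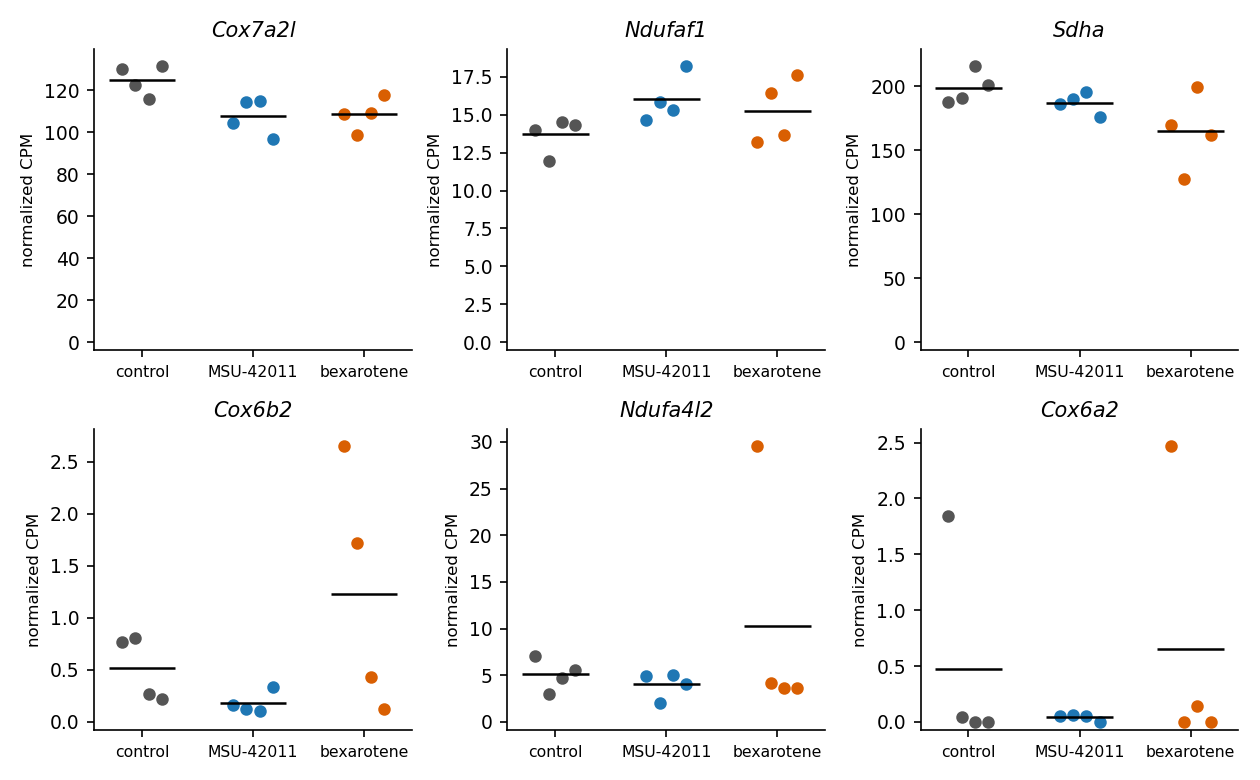
Normalized CPM of 6 OXPHOS genes in each tumor, with 1 point per tumor, the 3 diet groups side by side and a black line at the mean of each group; all axes start at 0. Cox7a2l and Ndufaf1 separate control from MSU-42011 by narrow gaps, while Ndufa4l2 (29.6) and Cox6a2 (2.47) are high in bexarotene replicate 1.

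The 2 agonists were fed at the same dose, and their direct comparison gave intervals rather than a difference. The 95% interval of the log2 fold change for MSU-42011 against bexarotene was -0.96 to 0.27 for mt-Co1, -0.44 to 0.25 for Cox4i1, -0.24 to 0.49 for Atp5b, -0.28 to 0.30 for Uqcrh, -0.08 to 0.45 for Sdha and -0.40 to 0.29 for Ndufa7. For Cox7a2l it was -0.21 to 0.19. Log2 fold changes within these intervals are not excluded by these data.

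Genes around the respiratory chain were described with lists of other mitochondrial functions. No gene of them passed an adjusted p of 0.05 in edgeR. Of 48 tested proteins of the large mitochondrial ribosome subunit, 10 lay above control with MSU-42011 (median log2 fold change -0.02) and 20 with bexarotene (-0.03). Of 17 tricarboxylic acid cycle enzymes, 7 and 0 lay above control, with medians of -0.04 and -0.06. Idh2, the mitochondrial isocitrate dehydrogenase, had -0.25 ± 0.12 with MSU-42011 (edgeR adjusted p = 1.00), and Sucla2, a subunit of succinyl-CoA synthetase, -0.22 ± 0.09 with bexarotene (edgeR adjusted p = 0.762). Of 13 electron carriers and complex III genes outside the selection, such as Cyc1 and Cycs, 4 and 6 lay above control, with medians of -0.03 and -0.10. The 30 further assembly factors had medians of -0.02 and 0.05, and 21 genes of mitochondrial transcription and RNA 0.03 and 0.01. Tfam, which packages and transcribes mitochondrial DNA, was nearly constant, at 41.4 to 47.6 normalized CPM in all 12 tumors. For 19 regulators of OXPHOS genes the medians were 0.02 and 0.03. Nrf1 itself had 22.8 to 27.1 normalized CPM, Gabpa 40.8 to 56.3, and Esrra, an estrogen-related receptor that activates OXPHOS genes, 65.4 to 106.9. Of 8 carriers and uncoupling proteins 2 lay above control with each agonist (medians -0.09 and -0.06). Of 13 hypoxia response genes 1 and 4 lay above control (medians -0.30 and -0.23), with Ldha at -0.80 ± 0.26 with bexarotene (edgeR adjusted p = 0.762). The median of this list per tumor was -0.21, -0.38, -0.09 and 0.75 in control replicates 1 to 4. It was -0.49 to 0.13 with MSU-42011 and -0.54 to 0.45 with bexarotene, so the groups overlapped and control replicate 4 was the highest.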

How the data were processed

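Poly(A) RNA-seq was made from 12 mammary tumors of MMTV-Neu mice, 4 per diet group, with groups and replicate numbers taken from the labels. The deposited table of read counts per gene was made by the authors with STAR 2.6.1d and featureCounts 1.5.0-p3, per the submitters' processing notes, which also name DESeq2. The strand setting and the treatment of reads with several matches are not given in the sources used here. A deposited table of FPKM values was computed by the authors from the same counts. No per-sample column was left unmapped. Coordinates are those of the count table, in GRCm38, and were the same in GENCODE M21 for 101 of 107 OXPHOS genes.

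Counts were tested with edgeR 4.0.16 (quasi-likelihood, R 4.3.3): filterByExpr, TMM scaling, 1 term per group, all 12 tumors, Benjamini-Hochberg adjustment over 15504 genes and a threshold of 0.05. Fold changes are log2, and intervals are 95% intervals from the fitted SE. The 3 comparisons form 1 family of pairs, and their p-values were adjusted over genes within each. For single genes a two-sided exact permutation test over the 70 splits of 4 tumors against 4 was added. DESeq2 1.42.0 and limma 3.58.1 (on log2(FPKM + 1) and log2(FPKM + 0.1)), other filters and scalings, a replicate block and the omission of each tumor were alternatives. The code was tested on simulated data. Total counts per tumor were 16583413 to 25925027.

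Named genes were the 3 with the smallest p in each direction of each comparison, those whose groups did not overlap, the 13 mitochondrial genes, the nuclear subunit of each complex with the highest FPKM, isoform pairs and up to 3 genes of other lists. Other genes named, such as Ndufb11, Ndufs5, Uqcr11, Atp5k and Cox6a1, were chosen after their values were seen. The OXPHOS genes and lists were chosen with earlier results of these data known. Promoters are from RefSeq, and copies of mitochondrial genes were searched in GENCODE M21 transcripts.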

Additional observations from a re-analysis of the deposited data

Results flagged for a closer look

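In 5 of 112 groups of 4 tumors examined, 1 tumor lay apart from the other 3 by Dixon's test at 95%, and chance alone marks about 1 in 20 groups. Cox6a2, the muscle form of COX6A, was at 1.84 normalized CPM in control replicate 1, with 0 to 0.0473 in the other control tumors. It was at 2.47 in bexarotene replicate 1, with 0 to 0.145 in the other bexarotene tumors. Skeletal muscle markers summed to 174.0 and 344.2 normalized CPM in these 2 tumors, and their part was not tested.

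Ndufa4l2 was at 29.6 normalized CPM in bexarotene replicate 1, against 3.63 to 4.197 in the other bexarotene tumors. In bexarotene replicate 2, mt-Co2 was at 37.7 (against 16.7 to 19.5) and mt-Co3 at 114.7 (against 12.8 to 16.9). Both of these mitochondrial genes have a nearly complete nuclear copy.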

How the results depend on the processing

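No OXPHOS gene passed the adjusted threshold of 0.05 under any alternative tried. The medians of the nuclear subunits and of the mitochondrial genes moved from their reported values by less than the SD of the control tumors' scores (0.15 and 0.47), but some changed sign. Medians of complexes also changed sign without single tumors. Of the log2 fold changes of single genes recomputed under the alternatives, 2 turned in direction. Cox8b for MSU-42011 against bexarotene, 0.65 (log2), was -0.61 without MSU-42011 replicate 2 and ranged up to 1.10. Ndufa4l2, -1.35, was 0.071 without bexarotene replicate 1 and ranged down to -1.64. The median of the nuclear subunits ranged from -0.17 to 0.03 for MSU-42011, from -0.08 to 0.16 for bexarotene and from -0.22 to 0.03 between the agonists when 1 tumor was left out. For the 13 mitochondrial genes these ranges were -0.30 to 0.08, 0.06 to 0.47 and -0.55 to -0.19, and the cause was not tested. Restricting the median to the 7 genes without a full copy, an alternative chosen after seeing the data, gave -0.02, 0.35 and -0.38. Without the filter on low counts the OXPHOS genes with an unadjusted edgeR p below 0.05 numbered 0 of 106 in place of 2 for bexarotene (6.24% of all genes) and 4 of 106 in place of 1 between the agonists (4.74% of all genes).

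Deviations from the group means had correlations of -0.35 to 0.35 between samples with the same replicate number. These were not set beside correlations of differently numbered samples, so they cannot settle whether the numbers pair the tumors. With the replicate block the median of the nuclear subunits was -0.07 for MSU-42011 and 0.02 for bexarotene, 0 OXPHOS genes were called, and 0, 0, 3 and 1 of 103 had an unadjusted p under 0.05 among the 3 groups and in the 3 comparisons (2.39%, 2.10%, 4.59% and 2.68% of all genes). Depth limits Cox6b2, with 2 to 72 counts per tumor, and mt-Atp8 and mt-Nd3, with 106 and 372 counts in all.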
